A study of Sus scrofa with 37 samples.

Results

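The mRNA abundance of the nuclear genes of oxidative phosphorylation was followed in peripheral blood mononuclear cells (PBMC) of pigs whose diets held a low (L), a medium (M) or a high (H) level of digestible phosphorus. Genes were taken by the symbol that the array annotation gives, those starting with NDUFA, NDUFB, NDUFC, NDUFS, NDUFV, SDHA to SDHD, UQCR, COX4 to COX8 or ATP5. This found 94 of the 47845 probe sets and 59 genes, and for each gene the probe set that was brightest on average over all 37 arrays was read. Of the 59 genes, 52 encode subunits, namely 25 of complex I, 3 of complex II, 2 of complex III, 8 of complex IV and 14 of complex V. The other 7 symbols share only the letters: NDUFAF1, NDUFAF2, NDUFAF3, NDUFAF4 and ATP5SL (now DMAC2) assist the assembly of complex I, ATP5S (now DMAC2L) is known as factor B of the ATP synthase, and NDUFA4L2 is a homologue of NDUFA4. Subunits outside this set, among them NDUFV1, SDHC, UQCRC1, UQCRFS1, COX4I1, COX5A and those encoded in the mitochondrial genome, were not analysed here.

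Complex I (NADH dehydrogenase) and complex II (succinate dehydrogenase) pass electrons to ubiquinone, complex III hands them to cytochrome c, and complex IV (cytochrome c oxidase) passes them to oxygen. Complexes I, III and IV pump protons across the inner mitochondrial membrane, and complex V (ATP synthase) lets them flow back to join inorganic phosphate to ADP. Phosphate is thus a substrate of the last step. Resting lymphocytes and monocytes both rely on this pathway, and most of its subunits are encoded in the nucleus.

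The samples were PBMC of German Landrace piglets of both sexes, collected by density gradient at 28 and 63 days post natum (dpn). The diets began at weaning, when the first sample was taken, so all 19 arrays of 28 dpn form the reference (R). The later samples, of 63 dpn, comprised 6 L, 5 M and 7 H samples. The labels name 19 pigs, 18 of them sampled at both ages, and 1 M pig at 28 dpn only. All diets were based on wheat, barley and soybean without added phytase, and they also differed in the ratio of calcium to phosphorus. All pigs were weaned onto a test diet, so age, weaning and diet cannot be told apart in a comparison of a diet with R. The labels do not say from which of the study's litters a pig came. PBMC are a mixture of cells, and more cells of a type and more RNA per cell cannot be told apart.

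The deposited values are log2 intensities. Their array medians ran from 5.25 to 5.42, and the first principal component held 13.8% of the variance. Farthest out on it were H pigs 12 and 11 at 63 dpn, at -66.7 and -44.9, so altered genes are also given without these arrays. Their monocyte markers averaged 10.7 (pig 12) and 9.59 (pig 11) on the log2 scale, against 7.94 to 9.40 in R. T cell and B cell markers, among them CD3E and MS4A1, were measured in all arrays, as PBMC should hold. Erythroid markers, among them HBB with a mean of 13.8, were measured as well, which a density gradient is meant to deplete.

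A gene was tested when its values had an SD over 0.23 and a mean over 2.5, which 38 of the 59 genes passed, 33 of them subunits. The other 21 all failed on the SD, so a gene with a low SD is a gene not tested here. Some of these were dim, so a low SD does not show stable mRNA: NDUFA4 averaged 3.15 and ATP5O 4.17, below every array median. A tested gene counts as altered when limma's P and Storey's q value are both 0.05 or less. The q value was computed over all 28086 probe sets tested and estimates the share of false calls among those called at that value.

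Between H and R samples 2 of the 38 tested genes were altered, NDUFB6 of complex I and SDHD of complex II, and both were more abundant in H samples. These are 5.26% of the tested genes, beside 2.09% of all probe sets tested (1.77% higher and 0.324% lower in H). An unadjusted P under 0.05 was reached by 11 of the 38 genes (28.9%), beside 18.3% of all probe sets. SDHB (q = 0.0669), NDUFAF1 (q = 0.0875) and NDUFB1 (q = 0.0877) lay just outside the threshold. Over all 52 subunits the log2 difference was above 0 in 31 and its median was 0.08, beside -0.02 over all probe sets tested. Of these 52 only 33 passed the filter, whereas every probe set of that background did, so the sets are not quite alike. The median differed among the complexes: it was 0.11 in complex I with 18 of 25 genes above 0, 0.09 in complex V with 8 of 14, and -0.05 in complex IV with 2 of 8.

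Set against their own values at 28 dpn, the H pigs showed 6 altered genes, and these comparisons share the 63 dpn H arrays with H against R. NDUFB6, SDHD, COX6C, ATP5G1 and NDUFAF1 rose and SDHB fell. The 6 genes are 15.8% of those tested, beside 12.5% of all probe sets. By direction, 13.2% of the genes were higher beside 7.99% of all probe sets, and 2.63% were lower beside 4.51%. Neither the M nor the L pigs had an altered gene against R or against their own 28 dpn values.

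**Figure D1:**
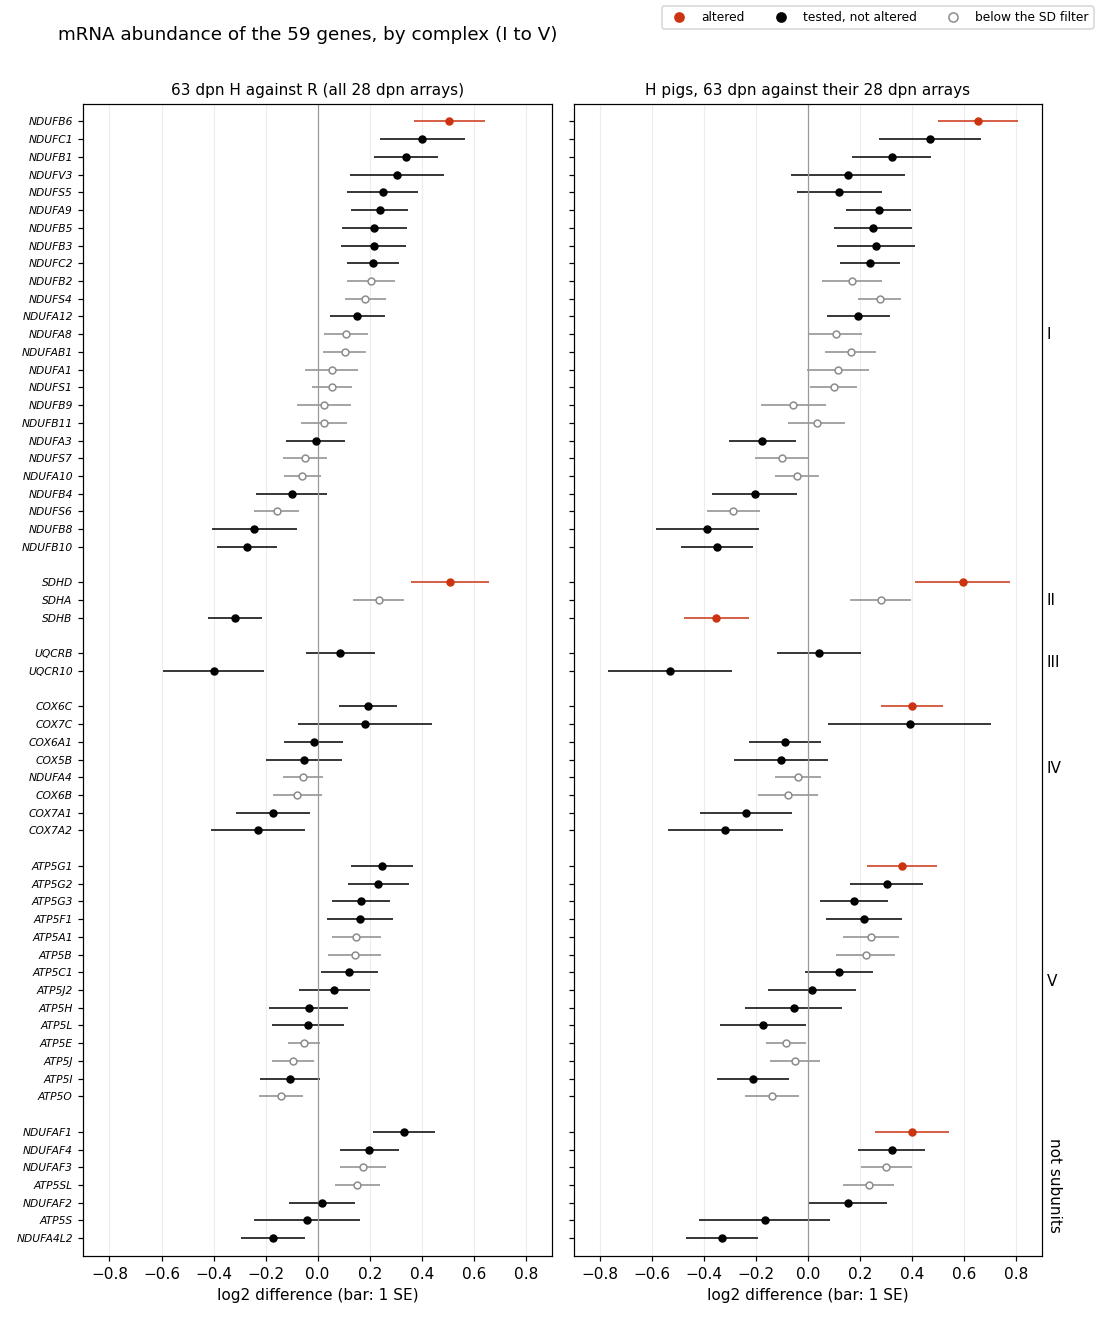
Log2 difference with 1 SE for each of the 59 genes, ordered by complex (I to V, then the 7 that are not subunits), for 63 dpn H against R on the left and for H pigs against their own 28 dpn arrays on the right; red points are altered genes, open points are genes below the SD filter. Complex I and the c-ring genes ATP5G1, ATP5G2 and ATP5G3 lie mostly to the right of 0, while SDHD at 0.51 and SDHB at -0.32 lie on opposite sides within complex II.

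NDUFB6 encodes an accessory subunit in the membrane arm of complex I, and it had the lowest q value of the 38 tested genes, both against R and within the H pigs. Its log2 values in the 7 H samples at 63 dpn had a lowest value of 7.59, a median of 8.07 and a highest value of 8.30. In R they were 6.69, 7.53 and 7.96. Of the 7 H samples 4 lay above every R sample, and none lay below the mean of R. The difference of 0.51 (SE 0.137, q = 0.0372) corresponds to a 1.42-fold higher abundance. At 63 dpn the 6 L samples ran from 7.54 to 8.10 with a median of 7.76, and the M samples stood at 7.59, 7.43, 7.78, 7.80 and 7.75. Most L and M samples lay in the upper part of R, and the highest L sample lay above every R sample. Their differences from R were 0.33 (SE 0.145, q = 0.410) in L and 0.20 (q = 0.999) in M, and neither passed the test.

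Within the H pigs NDUFB6 rose in 7 of 7, from a change of 0.12 in pig 18 to 1.33 in pig 9. The fitted change was 0.65 (SE 0.154, q = 0.00742), and it passed in all 37 fits that each left out 1 array, with q between 0.00438 and 0.0294. It also passed when pigs 11 and 12 were left out at 63 dpn (0.59, q = 0.0412). The difference from R was 0.44 (q = 0.220) with both left out. That call was also lost without any of the 63 dpn arrays of H pigs 9, 11, 12 and 15, the 28 dpn arrays of H pig 9 or those of M pigs 8 and 13, with q up to 0.146. The H pigs began low, with a 28 dpn median of 7.35 beside 7.76 in the L pigs and 7.36 in the M pigs.

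Elsewhere in complex I no tested gene was altered. In the membrane arm, 12 of 17 genes had a log2 difference above 0 between H and R, and in the matrix arm, which holds the NADH and iron-sulfur sites, 5 of 7 did. NDUFC1, a small membrane subunit, stood at 0.40 (SE 0.164, q = 0.117) and NDUFB1, another, at 0.34 (SE 0.123). The lowest values were those of NDUFB10 (-0.27, SE 0.114, q = 0.126) and NDUFB8 (-0.24, SE 0.164, q = 0.279), both accessory subunits of the same membrane arm. NDUFS1, the largest iron-sulfur subunit of the matrix arm, varied too little to be tested, with a difference of 0.05 (SE 0.0771).

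In L samples some of these genes had differences of the same size. L samples differed from R by 0.43 (SE 0.130) in NDUFB1 and by 0.41 (SE 0.173) in NDUFC1, with q values of 0.191 and 0.382. In complex I 21 of 25 genes were above 0 in L against R, with a median of 0.10, and 15 of 25 in M against R, with a median of 0.04.

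Complex II gave opposite directions for its subunits in H samples. SDHD encodes a membrane anchor that holds the enzyme in the inner membrane and binds ubiquinone. Its lowest, median and highest log2 values were 6.64, 7.20 and 8.15 in the H samples and 6.11, 6.67 and 7.25 in R. Of the H samples 3 lay above every R sample, and pig 12 was the highest. The M samples stood at 6.65, 6.42, 7.13, 7.28 and 6.81, and the L samples ran from 6.52 to 7.09 with a median of 6.74, so both groups lay within R apart from the M sample at 7.28.

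The SDHD difference between H and R was 0.51 (SE 0.150, q = 0.0498), 1.42-fold, which is at the edge of the threshold. With the pig as a random effect (a replicate block) q was 0.0510 and the gene was no longer altered. The difference was 0.30 (q = 0.336) when pigs 11 and 12 were left out at 63 dpn. The call held in 10 of the 37 fits that left out 1 array, with q between 0.0204 and 0.220. Against their own 28 dpn values the H pigs rose by 0.59 (SE 0.182, q = 0.0240), in 6 of 7 pigs, from -0.19 in pig 18 to 1.36 in pig 12. This was lost without the 63 dpn array of H pig 12 or the 28 dpn arrays of H pigs 3 and 9 (q up to 0.0711), and was 0.38 (q = 0.151) when both pigs 11 and 12 were left out at 63 dpn.

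SDHB encodes the iron-sulfur subunit that carries electrons from the flavin site to ubiquinone. In H samples its lowest, median and highest values were 10.5, 10.9 and 11.3, beside 10.8, 11.2 and 11.5 in R, and 2 of 7 lay below every R sample. L samples ran from 10.77 to 11.36 with a median of 10.94, and 2 of 6 lay below every R sample as well. The M samples stood at 11.02, 10.98, 10.92, 11.34 and 11.34. All groups overlapped with R, and the low samples came from both the H and the L pigs.

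SDHB fell in the H pigs by 0.35 on the log2 scale between 28 and 63 dpn (SE 0.126, q = 0.0418), to 0.783 of the earlier level, with 5 of 7 pigs lower. Pig 12 fell most, by 1.05. With pigs 11 and 12 left out at 63 dpn the difference was -0.23 (q = 0.231), and with the pig as fixed effects (also a replicate block) q was 0.0547. With each array centred on its median it was -0.29 (q = 0.0978), and on the mean of the gene's probe sets -0.26 (q = 0.116). Leaving out the 63 dpn arrays of H pigs 9, 11 or 12, or the 28 dpn arrays of H pigs 3, 6, 12, 15 or 18, also ended the call (q up to 0.108). Of the L pigs 5 of 6 and of the M pigs 4 of 5 were lower at 63 dpn as well, with changes of -0.24 (q = 0.917) and -0.10 (q = 0.996). SDHA, the flavin subunit, which was not tested for its low SD, stood at 0.23 (SE 0.0991) in H against R, on the side of SDHD.

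**Figure D2:**
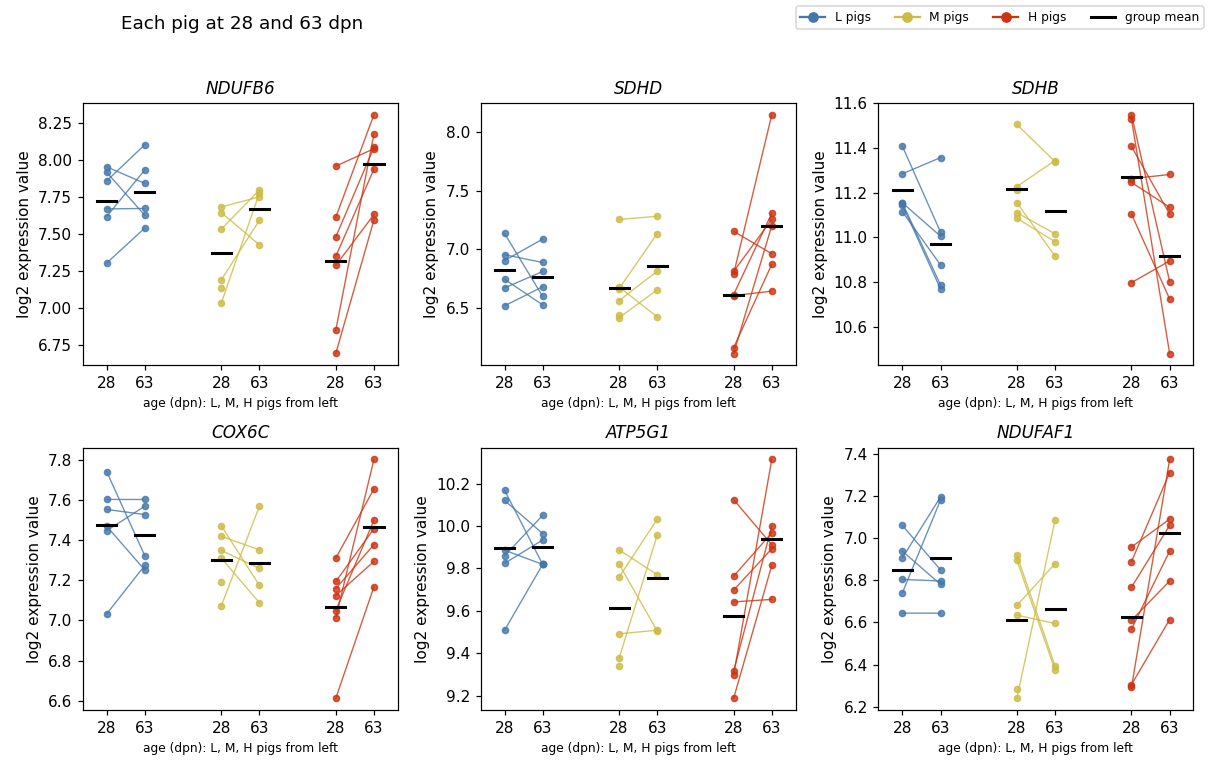
Log2 expression value of the 6 altered genes in each pig at 28 and 63 dpn, with lines joining the arrays of a pig and black bars for the group means; L pigs are blue, M pigs yellow and H pigs red. All 7 H pigs rise in NDUFB6, COX6C and NDUFAF1, whereas the L and M pigs cross in both directions.

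Complex III was represented by UQCRB and UQCR10, both small accessory subunits. UQCR10 had the lowest difference of all subunits between H and R, -0.40 (SE 0.194, q = 0.168), and it was not altered. Its H samples ran from 8.96 to 10.4 with a median of 9.90, and its R samples from 9.52 to 10.9 with a median of 10.1. Below every R sample lay the H samples of pigs 9, 11 and 12, at 9.17, 8.96 and 8.97, and without those of pigs 11 and 12 the difference was -0.09 (q = 0.662). Such low values also occurred on the other diets, in 3 of 6 L samples (9.497, 9.383 and 9.281) and 1 of 5 M samples (9.26). L samples differed from R by -0.35 (SE 0.206, q = 0.555), and 5 of 6 L pigs were lower at 63 than at 28 dpn. In the H pigs UQCR10 changed by -0.53 (SE 0.238, q = 0.0832) from 28 dpn, which counted as altered with the pig as fixed effects (q = 0.0425). UQCRB stood at 0.09 (SE 0.133) against R.

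In complex IV COX6C was the altered gene. It encodes a small nuclear subunit of cytochrome c oxidase that spans the membrane. At 63 dpn the H samples had a lowest value of 7.17, a median of 7.46 and a highest value of 7.80, and at 28 dpn the same pigs stood at 6.61, 7.12 and 7.31. The later arrays of 5 pigs lay above every earlier H array. All 7 H pigs rose, by 0.17 to 0.79, and the fitted change was 0.40 (SE 0.118, q = 0.0208), 1.32-fold. It was lost without the 28 dpn array of pig 3 (q = 0.0678), which stands apart at 6.61, and when pigs 11 and 12 were left out at 63 dpn (0.36, q = 0.0856).

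COX6C was lowest in the H pigs before the diets began, although the test of the diets at that age did not pass (q = 0.217). At 28 dpn the L pigs had a median of 7.51 and the M pigs of 7.33, above the 7.12 of the H pigs. At 63 dpn the medians were 7.42, 7.26 and 7.46, and H differed from L by 0.04 (SE 0.139, q = 0.906). Against R, which pools the pigs of all diets, the H samples differed by 0.19 (SE 0.110, q = 0.220). With the pig as fixed effects (a replicate block), which compares each H pig with itself only, this became 0.40 (q = 0.0315) and the gene counted as altered. A dimmer probe set of COX6C, below the SD filter, moved the other way in the H pigs (-0.12, SE 0.119), and the mean of both probe sets fell below that filter.

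Among the other genes of complex IV, COX7A2, the form that most tissues use, had the lowest difference from R in H samples (-0.23, SE 0.180, q = 0.326), and in L samples it stood at -0.44 (SE 0.190, q = 0.400). COX7A1, the form of heart and skeletal muscle, stood at -0.17 (SE 0.143, q = 0.343). COX5B, a subunit facing the matrix, and COX6A1, the form outside muscle, stood near 0, at -0.05 (SE 0.146) and -0.02 (SE 0.114). NDUFA4, once counted to complex I and now to complex IV, was not tested and stood at -0.06 (SE 0.0768). Its probe set was dim, with a mean of 3.15 over all arrays. COX6B, a subunit on the intermembrane side, was not tested either and stood at -0.08 (SE 0.0940).

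For complex V the c-ring, the rotor that turns as protons pass, was covered by its 3 genes ATP5G1, ATP5G2 and ATP5G3 (now ATP5MC1, ATP5MC2 and ATP5MC3), which encode the same mature subunit with different targeting peptides. ATP5G1 rose in 6 of 7 H pigs between 28 and 63 dpn, by 0.36 (SE 0.135, q = 0.0483), 1.28-fold. Its lowest, median and highest H values were 9.19, 9.64 and 10.1 at 28 dpn and 9.65, 9.91 and 10.3 at 63 dpn. The ranges overlapped, and 1 later array lay above every earlier array. In the L pigs the medians were 9.87 and 9.88, and in the M pigs 9.62 and 9.77.

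The ATP5G1 call sits at the threshold. It held in 18 of the 37 fits that left out 1 array (q between 0.0213 and 0.111), was lost with the pig as fixed effects (q = 0.0690), and stood at 0.43 (q = 0.0778) when pigs 11 and 12 were left out at 63 dpn. After repeated quantile normalization the change was 0.25 (q = 0.139). ATP5G2 and ATP5G3 changed by 0.30 (SE 0.141, q = 0.0928) and 0.18 (SE 0.130, q = 0.218) and were not altered. All 3 c-ring genes were above 0 in H against R (0.25, 0.23 and 0.17) and in L against R (0.21, 0.38 and 0.17). A second, dim probe set of ATP5G2 and of ATP5G3 had the opposite sign in H against R, at -0.26 (SE 0.106, q = 0.122) and -0.19 (SE 0.112, q = 0.225).

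The catalytic F1 head held no altered gene. ATP5A1 and ATP5B (now ATP5F1A and ATP5F1B), its alpha and beta subunits, varied too little to be tested and stood at 0.15 (SE 0.0949) and 0.14 (SE 0.101) in H against R. ATP5I, a small membrane subunit, had the lowest difference among the tested genes of complex V, -0.11 (SE 0.115, q = 0.415). Of the 4 peripheral stalk genes 1 was above 0 in H against R, whereas all 4 were in L against R. Among them ATP5H and ATP5O were dim, with means of 3.17 and 4.17 over all arrays.

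NDUFAF1, an assembly factor needed to join early parts of the complex I membrane arm, rose in 7 of 7 H pigs from 28 to 63 dpn. The lowest, median and highest values were 6.29, 6.61 and 6.96 before and 6.61, 7.06 and 7.37 after, and 4 of the later arrays lay above every earlier H array. The change was 0.40 (SE 0.142, q = 0.0412), 1.32-fold. In the L pigs it was 0.06 (SE 0.154, q = 0.969) and in the M pigs 0.05 (SE 0.161, q = 0.999), with 2 of 6 and 2 of 5 pigs higher.

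NDUFAF1 lost its call with the pig as fixed effects (q = 0.0604), after repeated quantile normalization (q = 0.0691) and when pigs 11 and 12 were left out at 63 dpn (0.47, q = 0.0624). Leaving out any of the 28 dpn arrays of H pigs 3, 6, 9 or 11 or the 63 dpn arrays of H pigs 9, 12, 15 or 18 ended it too (q up to 0.102). All 5 complex I assembly factors taken by these symbols were above 0 in H against R and in L against R. Of 15 further assembly factors, of complex I and of other complexes, 8 were above 0 and 7 below in each of these comparisons. NDUFA4L2, a gene known in other mammals to rise under hypoxia, was lower in 6 of 7 H pigs at 63 dpn (-0.33, SE 0.139, q = 0.0706) and higher in 5 of 6 L pigs (0.21, SE 0.150, q = 0.940), neither altered. ATP5S stood at -0.04 (SE 0.204) in H against R.

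Pigs of the same diet differed widely in how many subunits rose with age. Among the H pigs the number ran from 17 of 52 in pig 12 to 39 in pig 9, among the L pigs from 15 in pig 1 to 38 in pig 20, and among the M pigs from 22 in pig 5 to 34 in pig 16. The median change over the 52 subunits was highest in pig 9, at 0.35, where 45.2% of all tested probe sets rose. In pig 12 the median was -0.10 and the changes spread from -1.71 to 1.36, the widest SD of the subunits among the 18 pigs (0.582), as was the spread over all its tested probe sets (0.733). Subunits of an array share their RNA, so these counts describe pigs and are no replicates of a diet.

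**Figure D3:**
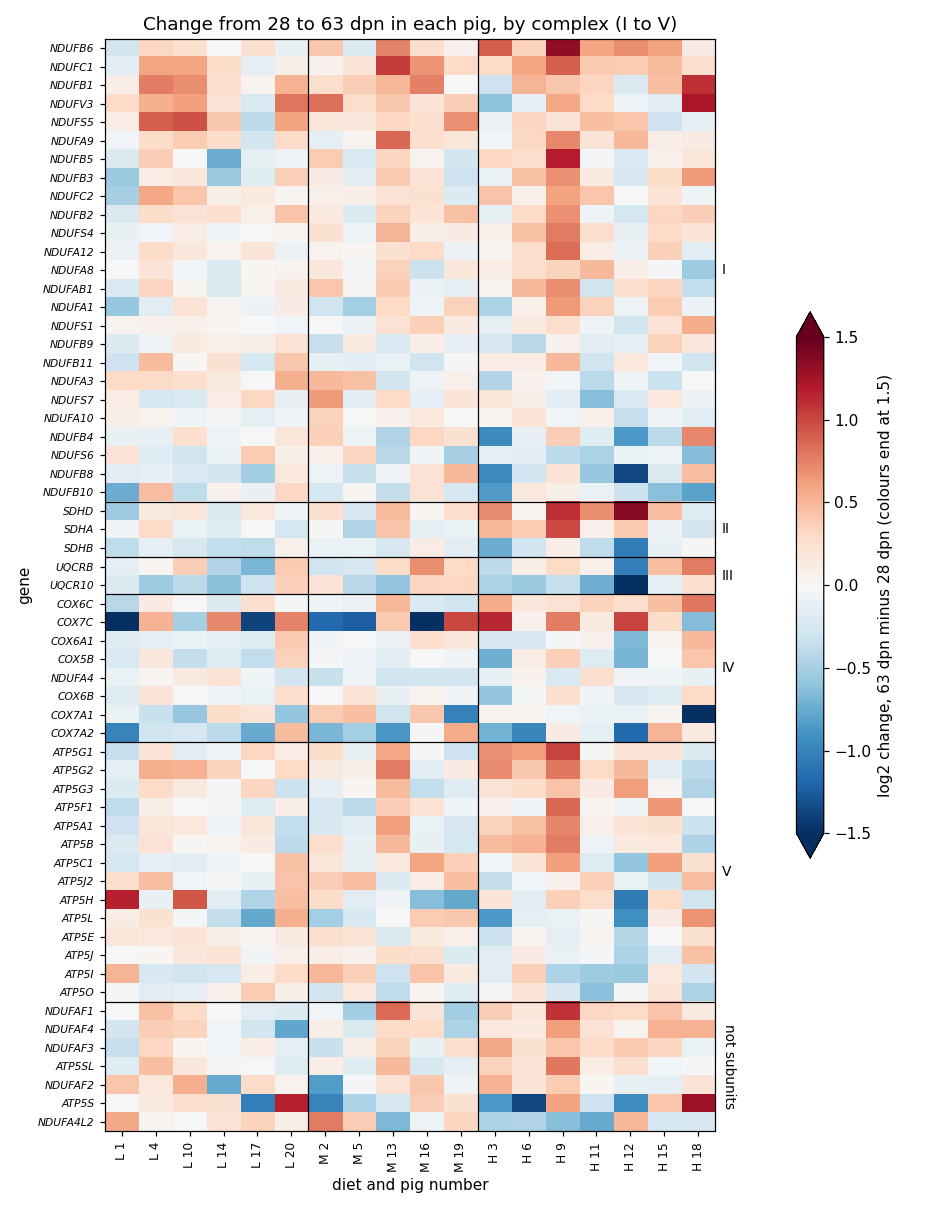
Change in log2 value from 28 to 63 dpn for the 59 genes (rows, by complex) in each of the 18 pigs sampled at both ages (columns, by diet), red for higher and blue for lower at 63 dpn. H pig 9 is red in most rows of complexes I and V, and H pig 12 has its strongest red in SDHD (1.36) and its strongest blue in UQCR10 (-1.71).

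Neither of the diets with less phosphorus gave an altered gene by limma. Between M and R samples 0 of 38 were altered (2, or 5.26%, with an unadjusted P under 0.05, beside 5.07% of all probe sets), beside 0.0178% of all probe sets altered, and between L and R samples 0 of 38, beside 0.0249%. In the latter an unadjusted P under 0.05 was reached by 10 genes (26.3%), beside 9.23% of all probe sets. The lowest q values were those of NDUFB1 in both, 0.903 and 0.191. Against their own 28 dpn arrays the M pigs and the L pigs each had 0 altered genes, beside 0% of all probe sets in each. In each, 2 genes (5.26%) had an unadjusted P under 0.05, beside 5.2% of all probe sets in M and 5.53% in L. Of the 52 subunits 38 lay above R in L samples, with a median of 0.08, beside 47.4% of all tested probe sets. In H samples 31 of 52 did, beside 45.5% of all tested probe sets, and in M samples 28 of 52, with a median of 0.02. These comparisons share the R samples, and the difference between these counts was not tested. The 52 include subunits that failed the filter, which the shares of all tested probe sets leave out.

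**Figure D4:**
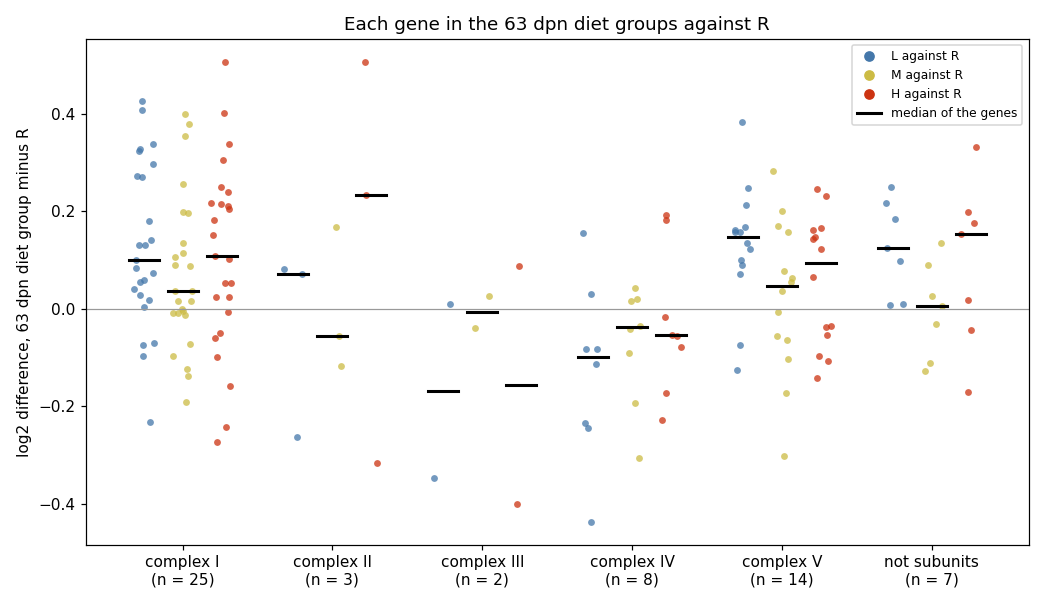
Log2 difference from R of each gene at 63 dpn in L (blue), M (yellow) and H (red) samples, grouped by complex, with a black bar for the median. Medians of complex I are 0.10, 0.04 and 0.11 for L, M and H, and those of complex V are 0.15, 0.05 and 0.09.

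Direct comparisons of the diets at 63 dpn altered 0 of the 38 genes. In each of them 0% of all probe sets were altered. An unadjusted P under 0.05 was reached by 1 gene for H against L (2.63%, beside 8.57% of all probe sets). It was reached by 3 for H against M (7.89%, beside 9.16%) and by 1 for M against L (2.63%, beside 3.1%). SDHD had the lowest q value of the genes for H against L, with a difference of 0.44 (SE 0.188, q = 0.477). For H against M the lowest was that of ATP5I (q = 0.397), and NDUFAF1 differed by 0.36 (SE 0.159, q = 0.397).

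Whether the change with age differed between the H pigs and the mean of the L and M pigs was tested in the fit with 6 groups, and 0 genes passed, beside 0% of all probe sets. An unadjusted P under 0.05 was reached by 6 of 38 (15.8%), beside 20.1% of all probe sets. The difference of changes was 0.43 (SE 0.150, q = 0.0712) for COX6C, -0.50 (SE 0.177, q = 0.0750) for NDUFA4L2, 0.53 (SE 0.231, q = 0.110) for SDHD and 0.48 (SE 0.196, q = 0.0971) for NDUFB6. A rise in H pigs is thus not shown to differ from that in the other diets. Before the diets began, 0 genes differed among the pigs later assigned to L, M and H, beside 0% of all probe sets, although 6 of 38 (15.8%) had an unadjusted P under 0.05 beside 11.3% of all probe sets tested. These were COX6C, NDUFB6, NDUFA3, NDUFA9, NDUFA12 and NDUFAF4. In COX6C, NDUFB6 and NDUFAF4 the H pigs had the lowest mean at 28 dpn, 7.07, 7.32 and 6.10, and the L pigs the highest, 7.47, 7.72 and 6.43.

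Of the 59 genes 21 had several probe sets. In 11 of these all probe sets had the same sign in H against R, and in 10 they did not. SDHB had 6 probe sets, all below 0, from -0.12 to -0.34, and SDHA 4, all above 0, from 0.03 to 0.28. By the symbols of the array annotation, NDUFB6, SDHD, ATP5G1 and NDUFAF1 had a lone probe set each, so under these symbols their values have no second reading. For SDHD, the study's own table gives this name to a further probe set, whose values are not given here.

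Males and females did not differ in any of the 38 genes (0 altered, and 0 with an unadjusted P under 0.05), beside 0.089% and 3.17% of all probe sets. NDUFA1 and NDUFB11, complex I genes on the X chromosome of the pig, were below the SD filter, with male minus female differences of -0.04 (SE 0.0753) and -0.09 (SE 0.0670).

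Related mitochondrial genes were read from lists, and their counts of altered genes in the H pigs against their own 28 dpn values stand beside 12.5% of all probe sets. Each was also read without pigs 11 and 12 at 63 dpn, an alternative chosen after seeing the data. Of the 14 tricarboxylic acid cycle genes found, which feed NADH and succinate to complexes I and II, none was altered between H and R, and all 14 were above 0, with a median of 0.16. In L against R 12 of 14 were above 0 (median 0.15), and in M against R 4 of 14 (median -0.01). In the H pigs against their own 28 dpn values 2 of 8 tested genes were altered, SUCLG1 (0.39, SE 0.120, q = 0.0241) and SUCLA2 (0.43, SE 0.132, q = 0.0246), which encode subunits of the succinyl-CoA ligase. Neither passed without pigs 11 and 12 (0.43, q = 0.0518, and 0.46, q = 0.0594).

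Carriers of phosphate and nucleotides, listed together with porins, had 4 of 6 tested genes altered in the H pigs from 28 to 63 dpn, beside 12.5% of all probe sets. Of the 12 genes of this list 6 were above 0 and 6 below, with a median of -0.02. SLC25A3, which brings phosphate into the matrix for complex V, rose by 0.33 (SE 0.111, q = 0.0352), and the ADP/ATP carriers SLC25A4 and SLC25A5 rose by 0.44 (SE 0.128, q = 0.0201) and 0.55 (SE 0.155, q = 0.0176). VDAC3, a pore of the outer membrane, fell by 0.37 (SE 0.135, q = 0.0464). Without pigs 11 and 12 only SLC25A4 of these 4 passed (0.55, q = 0.0269), with SLC25A3 at 0.34 (q = 0.0882), SLC25A5 at 0.54 (q = 0.0623) and VDAC3 at -0.29 (q = 0.191). Among regulators of mitochondrial biogenesis 3 of 8 tested genes were altered, with TFAM, which packages and transcribes mitochondrial DNA, at 0.45 (SE 0.128, q = 0.0181), POLG2, a subunit of the mitochondrial DNA polymerase, at 0.37 (SE 0.132, q = 0.0412), and the transcription factor YY1 at -0.43 (SE 0.118, q = 0.0158). Without pigs 11 and 12 only TFAM of these 3 passed (0.56, q = 0.0252), with POLG2 at 0.43 (q = 0.0707) and YY1 at -0.35 (q = 0.0883). Of 8 tested further assembly factors and 3 tested electron carriers none was altered. In H against R none of the 5 lists held an altered gene.

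**Figure D5:**
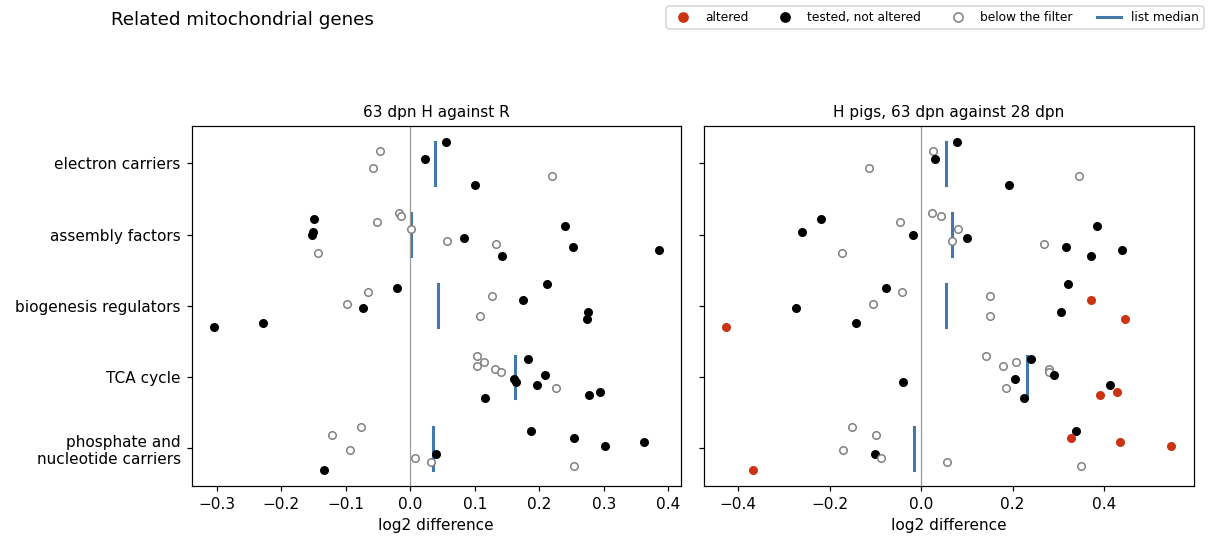
Log2 difference of each gene of 5 lists of related mitochondrial genes, for 63 dpn H against R on the left and for H pigs against their own 28 dpn arrays on the right, with the list median in blue; red points are altered genes and open points are below the filter. All 14 genes of the tricarboxylic acid cycle lie to the right of 0 on the left side, with a median of 0.16.

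Cell type markers moved in the same comparisons, here first in H against R, where 2.09% of all probe sets tested were altered. All 11 monocyte markers were above 0 in H against R, with a median of 0.62, and 2 of them were altered, CD14 (0.78, SE 0.227, q = 0.0478) and TYROBP (0.77, SE 0.209, q = 0.0372). Without pigs 11 and 12 at 63 dpn neither passed, at 0.36 (q = 0.353) and 0.60 (q = 0.212). The monocyte list was drawn up with TYROBP, TLR2, TLR4 and CD86 in it. The study itself reports these genes as more abundant in H than in R samples on these arrays, so they are no independent reading. Averaged over the list, the H samples ran from 8.53 to 10.7 with a median of 9.16, and R from 7.94 to 9.40 with a median of 8.66. The 6 neutrophil markers were above 0 as well (median 0.48, 0 altered), with H samples from 7.52 to 9.60 and R samples from 7.32 to 8.14. The 9.60 was that of pig 12, with pig 11 at 8.38, and the H median of 7.94 lay within R. Natural killer cell markers were above 0 in 7 of 8 (median 0.41), with H samples from 6.49 to 7.35 and R samples from 5.73 to 8.11. Of 8 erythroid markers 6 were below 0 and 1, BPGM, was altered (-0.77, SE 0.205, q = 0.0343, and -0.47, q = 0.307, without pigs 11 and 12), and the lowest list averages, 11.2 and 11.4, were again those of pigs 12 and 11. Platelet markers were below 0 in 6 of 7 in H and in M samples and in 7 of 7 in L samples. T cell markers were above 0 in 6 of 7 and B cell markers in 3 of 6, with 0 altered.

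Within the H pigs, from 28 to 63 dpn, more markers were altered, in a comparison that altered 12.5% of all probe sets tested. Of 11 monocyte markers 5 rose and all were above 0 (median 0.80), with list averages of 8.36 to 8.77 at 28 dpn and 8.53 to 10.7 at 63 dpn. All 6 B cell markers were above 0 (median 0.34), and MS4A1 (0.56, SE 0.177, q = 0.0265) and PAX5 (0.56, SE 0.163, q = 0.0196) rose, with averages of 8.28 to 9.30 before and 8.87 to 9.84 after. All 8 natural killer cell markers were above 0 (median 0.50), with KLRK1 altered (1.60, SE 0.470, q = 0.0202) and averages of 5.73 to 8.11 before and 6.49 to 7.35 after. BPGM and EPB42 of the erythroid list fell, by 0.93 (q = 0.0140) and 0.91 (q = 0.0204) on the log2 scale. T cell markers were above 0 in 6 of 7 (median 0.13), neutrophil markers in 4 of 6 (median 0.42), and platelet markers in 0 of 7 (median -0.46), with 0 altered in each. Without pigs 11 and 12 at 63 dpn 0 of the 5 monocyte, 1 of the 2 B cell (PAX5, 0.64, q = 0.0388), 0 of the 1 natural killer and 0 of the 2 erythroid markers passed. The part of these cell types in the differences of NDUFB6, SDHD, SDHB, COX6C, ATP5G1 and NDUFAF1 was not tested.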

How the data were processed

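PBMC RNA was hybridised to porcine Snowball arrays, which per the labels were read with GCOS 1.1.1. The authors normalized the arrays by RMA and deposited log2 values of 47845 probe sets on 37 arrays, which were used as they stand. The genome build behind the probe annotation is not given in the sources used here. The number of arrays limits the precision. Diet, age and sex came from the labels and the pig number from the titles; 0 columns belonged to no sample. The sire that the study's model names is not in the labels and was left out.

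After removing 123 control probe sets, 28086 probe sets passed the study's filters on SD and mean. Differences were tested with limma 3.58.1 in R 4.3.3, with sex and either 4 groups (R and the 63 dpn diets) or 6 groups (diet by age) as factors; R was assigned as in the study. For Storey's q the lambda values ran from 0.05 to 0.95, 0.05 apart, with a spline of 3 degrees of freedom. The fit of H against R was also run on simulated data. Those arrays were independent, without pairs or outlying arrays, so that run does not bear on the calls within the H pigs. The fits took all 37 arrays as independent, although 18 pigs were sampled at both ages. P values thus weigh a difference against the residual spread over these arrays, and not against the spread of the changes within a pig.

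The members, the related lists and the marker lists were chosen with earlier results of these data known. Named were the altered genes, the highest and lowest tested gene of each complex in H against R, core subunits, isoforms, X-linked genes and the symbols that are no subunit. NDUFC1, NDUFB1, NDUFB8, NDUFS4, NDUFS6 and the genes of the 28 dpn test were chosen with their values in view. Every q value printed comes from limma's P, over all probe sets tested.

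Arrays with the same pig number come from the same animal, so the numbers pair the arrays of a pig. After subtracting group means, the correlation within a pig ran from -0.162 to 0.235 over 18 pigs, with 8 pigs over 0.1, and the consensus correlation was -0.00548. The study's model has no pig term, so the values given are from unpaired fits, including those within the H pigs, and the pig entered only as an alternative. Others were Benjamini-Hochberg adjustment, other filters, no sex term, fits of only the groups compared, array weights, other normalizations, unmoderated variances, other probe sets of a gene, and leaving out arrays.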

Additional observations from a re-analysis of the deposited data

Results flagged for a closer look

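Values standing apart from the other arrays of their diet and age, by the gap to the nearest value relative to the range of the group, were looked for in 25 named genes and 6 groups, 150 sets of values in all. A value stood apart in 10 of them, and chance alone gives about 1 in 20. The reference R as a whole, with 19 arrays, was not examined in this way.

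Among the altered genes, COX6C was low in H pig 3 at 28 dpn, at 6.61 beside a nearest value of 7.01. SDHB was high in M pig 19 at 28 dpn (11.5, nearest 11.2), and SDHD was high in M pig 16 at 28 dpn (7.25, nearest 6.68). In the c-ring ATP5G2 was high in H pig 9 at 63 dpn (11.02, nearest 10.46) and in L pig 1 at 28 dpn (10.6, nearest 10.3), and ATP5G3 was high in H pig 18 at 28 dpn (7.56, nearest 7.11). In complex IV COX7A1 was high at 28 dpn in H pig 18 (7.45, nearest 6.35) and in M pig 19 (7.15, nearest 6.35), COX6B was high in M pig 2 at 28 dpn (8.72, nearest 8.40), and COX5B was low in M pig 13 at 63 dpn (6.68, nearest 7.26). Without the 28 dpn array of H pig 3 the rise of COX6C in H pigs was 0.33 (q = 0.0678).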

How the results depend on the processing

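Between H and R samples 2 genes were altered. The number was 0 with Benjamini-Hochberg adjustment, in a fit of only the groups compared, with array weights, and without the 63 dpn arrays of H pigs 11 and 12. It was 1 without the filter, with the pig as a random replicate block, after repeated quantile normalization (SDHB) and with unmoderated variances, and 5 with the stricter filter (mean over 5) and with the pig as a fixed replicate block. Leaving out 1 array gave 0 to 3. For the H pigs against their own 28 dpn arrays the 6 genes became 0 in a fit of only the groups compared, 1 without the 63 dpn arrays of pigs 11 and 12, 3 with Benjamini-Hochberg adjustment and 14 with the stricter filter, and 1 to 9 with 1 array left out. The fixed replicate block compares each H pig with itself only, so its 5 altered genes are 1 and the same test under both comparisons. Of these 5, NDUFB6, SDHD and COX6C were among the 6. The test of the change with age in H against L and M gave 4 genes instead of 0 with the stricter filter (NDUFB6, COX6C, NDUFAF4 and NDUFA4L2), and 0 to 2 with 1 array left out. The other 9 counts were 0 under each alternative run. Without the arrays of pigs 11 and 12 only 4 probe sets of the whole table were altered in H against R and 882 in the H pigs against 28 dpn, beside 588 and 3512 with them. No altered gene changed its sign under any alternative run that gave it a value. The alternatives by probe set could not change NDUFB6, SDHD, ATP5G1 and NDUFAF1, which have a lone probe set by the annotation. For COX6C the mean of its probe sets fell below the filter and gave no value. The fixed block gave no value for the comparisons between diets, sexes and 28 dpn groups, the fit of only the groups compared none for sex and for the test of the change with age, and the fit without sex none for sex. The number of arrays limits what can be called, and 21 genes with a low SD had no test. The stricter filter tests fewer probe sets. The share altered over all probe sets was not counted with that filter or without a filter, so those numbers of genes have no background beside them. The cause of the other differences was not tested.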

Other observations

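COX7C, a small subunit of complex IV chosen here after its values were seen, had the highest SD of the 59 genes over all arrays, 0.610. Its change from 28 to 63 dpn ran from -1.92 to 0.75 in the L pigs, from -1.742 to 0.997 in the M pigs and from -0.65 to 1.13 in the H pigs, and it differed from R by 0.18 (SE 0.257, q = 0.470) in H samples. Without the filter on SD, 9 of the 59 genes were altered in the H pigs between 28 and 63 dpn: the 6 named above and NDUFS4 (0.28), NDUFS6 (-0.29) and NDUFAF3 (0.30), of which NDUFS6 was lower in 7 of 7 H pigs. The share altered over all unfiltered probe sets was not counted, so this number has no background beside it.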
